A study of Homo sapiens and Mus musculus with 4 samples.

Results

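The regions described here are the TEAD-bound regions listed at 3 gene loci of the insulin-like growth factor system, H19 with IGF2 and IGF1R, in human and mouse rhabdomyosarcoma cells. A listed region, or peak, was a member when its midpoint lay in a window set around these loci. In hg19 the windows were 1.90 to 2.30 Mb of chromosome 11 for H19 and IGF2 and 99.04 to 99.66 Mb of chromosome 15 for IGF1R. In mm9 they were 149.65 to 150 Mb of chromosome 7 for H19 and Igf2 and 74.95 to 75.53 Mb of the same chromosome for Igf1r. They held 56 of the 69714 listed peaks, 16 of 22681 in the human list and 40 of 47033 in the mouse list.

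The human list came from RD, an established embryonal rhabdomyosarcoma cell line, with 1 TEAD library called against 1 IgG library. The mouse list came from YAP-ERMS cells, which the labels describe as cells of YAP-driven tumours under Myf5-Cre or Pax7-CreER, with 1 TEAD library called against 1 input library. Both Cre drivers act in the muscle lineage, Myf5 in muscle progenitors and Pax7 in satellite cells, and the labels do not say from which of them the sequenced cells came, nor which TEAD protein the antibody binds. Each group was 1 library, with no treatment or time series, so no comparison has a replicate error and no test was made.

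TEAD proteins are transcription factors that bind DNA and recruit the co-activator YAP1, and in muscle they are known for binding the M-CAT element of muscle genes. IGF2 is a secreted growth factor that signals through the receptor tyrosine kinase encoded by IGF1R and promotes growth of fetal muscle. IGF2 and the long noncoding RNA gene H19 are neighbours in an imprinted domain, where IGF2 is normally expressed from the paternal and H19 from the maternal copy, and loss of this balance is common in embryonal rhabdomyosarcoma. Peaks carry no information on which parental copy was bound.

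The gene names belong to the windows. Start sites, exons and introns in hg19 or mm9 were not used here, so no peak was placed in relation to a gene, and a peak in the shared window was assigned to neither H19 nor IGF2. In the RefSeq table of the human GRCh38.p14 assembly, used for gene order only, the protein-coding genes next to H19 were MRPL23, a mitochondrial ribosomal protein gene, and TNNT3, which encodes fast skeletal troponin T, on the side of lower coordinates. INS and TH, the genes of insulin and tyrosine hydroxylase, followed IGF2 on the other side. PGPEP1L and SYNM, the latter the gene of the intermediate filament protein synemin, followed IGF1R. The windows can therefore hold peaks of neighbouring genes.

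Sequences of the peaks were not read, because they would have to come from hg19 or mm9. The 250 bases before the start of H19 and of IGF1R, credited to RefSeq on GRCh38.p14, are printed to show how unlike these gene starts are. Capitals mark GGAAT or ATTCC, a 5-letter part of the M-CAT core that is too short and common to mark a TEAD site.
H19, chr11:2001267-2001516, minus strand: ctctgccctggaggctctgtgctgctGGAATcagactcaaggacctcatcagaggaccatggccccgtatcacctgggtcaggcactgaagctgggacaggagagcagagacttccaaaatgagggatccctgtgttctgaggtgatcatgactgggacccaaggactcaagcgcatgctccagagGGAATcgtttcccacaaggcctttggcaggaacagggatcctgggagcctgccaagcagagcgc
IGF1R, chr15:98648289-98648538, plus strand: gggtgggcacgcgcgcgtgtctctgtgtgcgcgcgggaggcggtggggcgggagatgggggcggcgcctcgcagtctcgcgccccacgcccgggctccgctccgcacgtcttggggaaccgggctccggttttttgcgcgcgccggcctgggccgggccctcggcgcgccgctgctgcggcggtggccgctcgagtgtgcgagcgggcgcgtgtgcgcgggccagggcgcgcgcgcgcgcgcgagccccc
The 6-letter M-CAT core, CATTCC or GGAATG, was found in neither, against 11.9% of 35116 promoters of the same length. The longer form, ACATTCC or GGAATGT, was found in neither, against 2.96% of promoters. The 5-letter core, which is contained in both longer forms and was added after the sequences were seen, had 2 matches before H19 and 0 before IGF1R, and 32.2% of promoters held it. The stretch before H19 had 4 CG pairs and that before IGF1R 48, with 58.0% and 81.2% G and C. The medians over all promoters were 11 CG pairs and 58.0%, so in G and C only IGF1R departed from the median. No IGF2 stretch was among the promoters used. No peak could be placed on either stretch, because the stretches are on GRCh38.p14 and the peaks on hg19 or mm9. The printed coordinates of stretches and peaks cannot be set against each other.

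The score is the authors' own value for each peak and was taken as the negative log10 of its p-value times 10. It rises with sequencing depth and depends on the control, so scores were ranked only within a list. The lowest score in each list was 80. The median was 189 in RD and 205 in YAP-ERMS, and the median widths were 335 and 1083 bp. How deeply the libraries were sequenced is unknown.

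In RD, the H19/IGF2 window held 8 peaks in 3 groups. The strongest was a pair of neighbouring peaks at chr11:1988886-1989518 and chr11:1990277-1990850. The first was 633 bp wide with a score of 1496, the 458th highest of the RD list. The second was 574 bp wide with a score of 911 and ranked 1519th. They were 0.758 kb apart, and 15.9% of RD peaks had a neighbour within 1 kb. The pair stood far above every other peak of the window.

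Around this pair lay 3 weaker peaks. Below it in coordinate were chr11:1968461-1968710, 250 bp wide with a score of 172, and chr11:1975028-1975495, 468 bp wide with a score of 306. Above it was chr11:2000945-2001247, 303 bp wide with a score of 121, its centre 11.9 kb from that of the strongest peak. Then came 158 kb without a peak, and 18.3% of the gaps between neighbouring RD peaks were that long or longer.

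The third group of the RD window held 3 low peaks within 12.3 kb. They were chr11:2158944-2159275, 332 bp wide with a score of 261, chr11:2164222-2164397, 176 bp wide with a score of 97.4, and chr11:2170930-2171234, 305 bp wide with a score of 145. Their centres were 170, 175 and 182 kb from the strongest peak. Only the first of these 3 scored above the list's median. Beyond them no RD peak was listed for 384 kb, and 7.44% of the list's gaps were that long.

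In YAP-ERMS, the H19/Igf2 window also held 8 peaks, and the highest again had a close neighbour. The highest lay at chr7:149735572-149737931, had a width of 2360 bp and a score of 1803, the 909th highest of the mouse list. Next to it, 0.257 kb away, was chr7:149738189-149739284, 1096 bp wide with a score of 451. A neighbour within 1 kb was listed for 15.3% of mouse peaks. A weak peak followed at chr7:149747730-149748745, 1016 bp wide with a score of 102. Its centre was 11.5 kb from that of the highest peak, on the side of higher coordinates.

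The next peaks were chr7:149763731-149764835, 1105 bp wide with a score of 120, and chr7:149785999-149786982, 984 bp wide with a score of 134. Their centres were 27.5 and 49.7 kb from the highest peak. Both were in the lower part of the list, with 24.5% and 30.2% of mouse peaks scoring no higher. After 63.3 kb without a peak came chr7:149850308-149851309, 1002 bp wide with a score of 197, and chr7:149855792-149857577, 1786 bp wide with a score of 550, the second highest of the window. Their centres were 114 and 120 kb from the highest peak.

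The remaining mouse member was chr7:149654703-149657753, which was 3051 bp wide with a score of 461. It lay 80.5 kb before the highest peak and 5.47 kb from a listed peak just outside the window. After the last member no mouse peak was listed for 342 kb, a gap reached or exceeded by 2.14% of the gaps in that list.

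**Figure D1:**
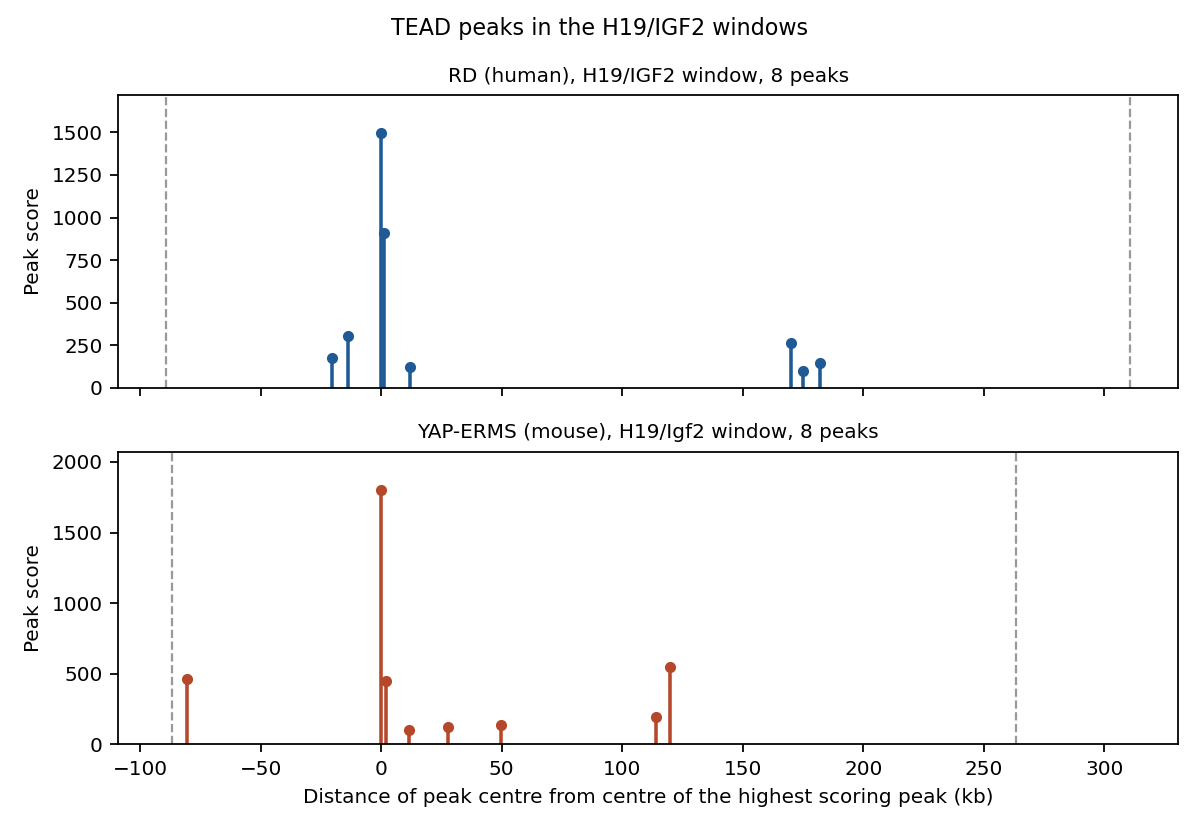
Score of each peak in the H19/IGF2 window of RD (top, 8 peaks) and YAP-ERMS (bottom, 8 peaks) against the distance of its centre from that of the window's highest peak, in kb; dashed lines are the window's edges, and the score axes differ. The highest peak of each panel has a close neighbour, with a score of 911 in RD and 451 in YAP-ERMS. In YAP-ERMS peaks with scores of 550 and 461 exceed that neighbour. A weak peak lies 11.9 kb (RD) or 11.5 kb (YAP-ERMS) beyond the highest, and a separate group 170 to 182 kb or 114 to 120 kb beyond it. The other peaks lie at unlike distances in the panels.

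Set side by side, the members of both H19/IGF2 windows ran from first to last over 203 kb. That length depends on where the windows were cut, since a further peak lay 1.62 kb below the RD and 1.46 kb below the mouse window. The layouts differed: RD had 2 peaks within 20.6 kb below the strongest pair, where YAP-ERMS had none until 80.5 kb. YAP-ERMS in turn had peaks 27.5 and 49.7 kb above it, where RD had none. Human and mouse sequence were not aligned, so no peak of one species is matched to a peak of the other.

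In RD, the IGF1R window held 8 peaks, and none reached the height of the H19/IGF2 pair. The highest was chr15:99270837-99271274, 438 bp wide with a score of 675, which ranked 2511th in the list. It was followed by chr15:99152673-99153267, 595 bp wide with a score of 512, and chr15:99214699-99215031, 333 bp wide with a score of 404. The centres of the 3 were at least 56.2 kb apart.

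Of the others, chr15:99232559-99232873 was 315 bp wide with a score of 289 and chr15:99111610-99112038 was 429 bp wide with a score of 248. Below the list's median were chr15:99554158-99554422, 265 bp wide with a score of 181, chr15:99262506-99262776, 271 bp wide with a score of 166, and chr15:99235477-99235646, 170 bp wide with a score of 84.4. The last was close to the authors' limit.

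The RD peaks at IGF1R lay mostly toward the window's lower end. Of the 8, 7 lay in the part of the window up to the highest peak, and 283 kb without a peak separated that one from the last. On the other side, no RD peak was listed for 1874 kb before the first member, and only 0.676% of the list's gaps were as long. The closest pair, at chr15:99232559-99232873 and chr15:99235477-99235646, was 2.60 kb apart.

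In YAP-ERMS, the Igf1r window held 32 peaks. Of these, 10 are named and the other 22 had scores of 88.4 to 488 and widths of 835 to 1770 bp. The highest was chr7:75456090-75458673, which was 2584 bp wide with a score of 2386, the 366th highest of the mouse list and the highest of its 40 members. The second was chr7:75410903-75412659, 1757 bp wide with a score of 1919. The third was chr7:75296832-75298993, 2162 bp wide with a score of 1482, and the fourth chr7:75112838-75113994, 1157 bp wide with a score of 1120.

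The next were chr7:75117706-75119096, 1391 bp wide with a score of 933, chr7:75421534-75423126, 1593 bp wide with a score of 815, and chr7:75407260-75409612, 2353 bp wide with a score of 757. The last 3 of the 10 were chr7:75166175-75167414, 1240 bp wide with a score of 681, chr7:75481844-75483098, 1255 bp wide with a score of 616, and chr7:75055064-75057316, 2253 bp wide with a score of 536. High peaks were thus found along most of the window, and the highest were toward its upper end.

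Neighbouring peaks at Igf1r were joined into clusters at gaps of at most 12500 bases, and 26 of the 32 fell into 6 clusters. The share of all mouse peaks that fall into clusters was not counted. The median gap of the mouse list was 16.7 kb, longer than the joining limit. Without that share, the 26 cannot be called usual or unusual for the list. The largest held 10 peaks over 58.6 kb, at chr7:75407260-75465874, and the 2 highest peaks of the window were in it. It held 4 of the 10 highest and 6 of the other 22. Among the 10148 mouse clusters of 2 or more peaks, 93 were of that size or larger, or 0.916%.

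The next cluster, of 6 peaks, spanned 24.5 kb at chr7:75274516-75298993 and had the third highest peak at its upper end; 7.33% of mouse clusters were of that size or larger. Another put 4 peaks into 6.26 kb at chr7:75112838-75119096, with scores of 1120 and 933 at its ends and 195 and 230 between them. Its gaps were 0.311, 0.804 and 0.538 kb, and 23.2% of mouse clusters held 4 peaks or more. The other 3 clusters were pairs. In RD the clusters of these loci held at most 3 peaks, a size that 36.9% of RD clusters reached or exceeded.

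**Figure D2:**
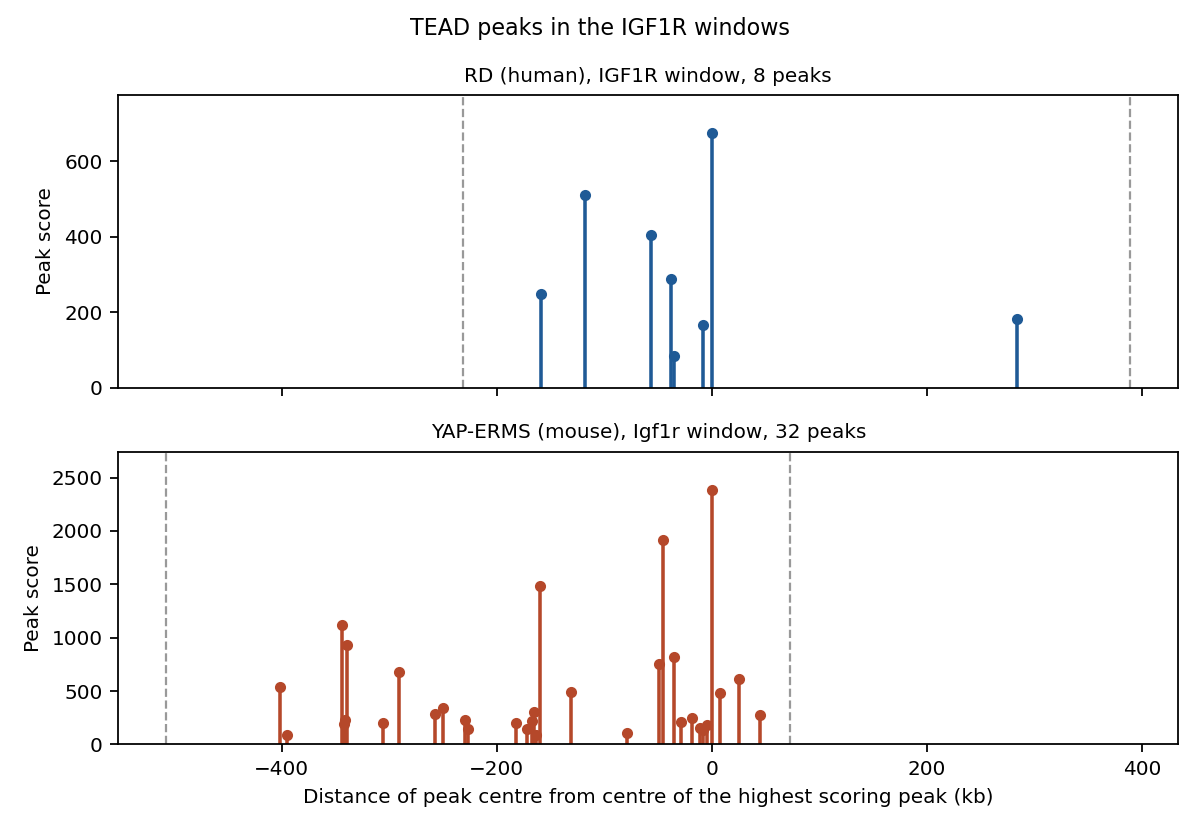
Score of each peak in the IGF1R window of RD (top, 8 peaks) and YAP-ERMS (bottom, 32 peaks) against the distance of its centre from that of the window's highest peak, in kb; dashed lines are the window's edges, and the score axes differ. The RD peaks are few and end, but for 1 peak, at the highest of 675, while the YAP-ERMS peaks are dense around the highest of 2386.

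The number of peaks was then read against the rest of each list. Windows of equal length were laid end to end over the 23 human and 20 mouse chromosomes compared, within the stretch that peaks span on each. The RD H19/IGF2 window, with 20 peaks per Mb (exact Poisson 95% interval 8.63 to 39.4), had 2.59 times the density of the list, 7.72 per Mb. Of 7316 windows of that length 12.48% held 8 peaks or more, and the median held 2. The RD IGF1R window had 12.9 peaks per Mb (5.57 to 25.4), 1.67 times the list's density, and 24.06% of 4717 windows held as many or more, with a median of 3. With only peaks scoring 160 or more counted, that share was 12.45% for IGF1R and 12.42% for H19/IGF2.

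In the mouse list, which had 18.3 peaks per Mb, the H19/Igf2 window had 22.9 per Mb (9.87 to 45.0) or 1.25 times as many. As many peaks or more were held by 36.58% of 7313 windows, so its number was an ordinary one for this list. The Igf1r window had 55.2 peaks per Mb (37.7 to 77.9), 3.01 times the list's density. Of 4407 windows of its length, 2.97% held 32 peaks or more, the median held 9 and the fullest 55. The share was 1.56% among windows of chromosome 7 and 1.32% with only peaks scoring 160 or more counted. It rose to 3.48% among windows with at least 1 peak and to 4.29% with peaks within 1 kb joined. The Poisson intervals hold counting error alone and are too narrow where peaks are grouped.

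**Figure D3:**
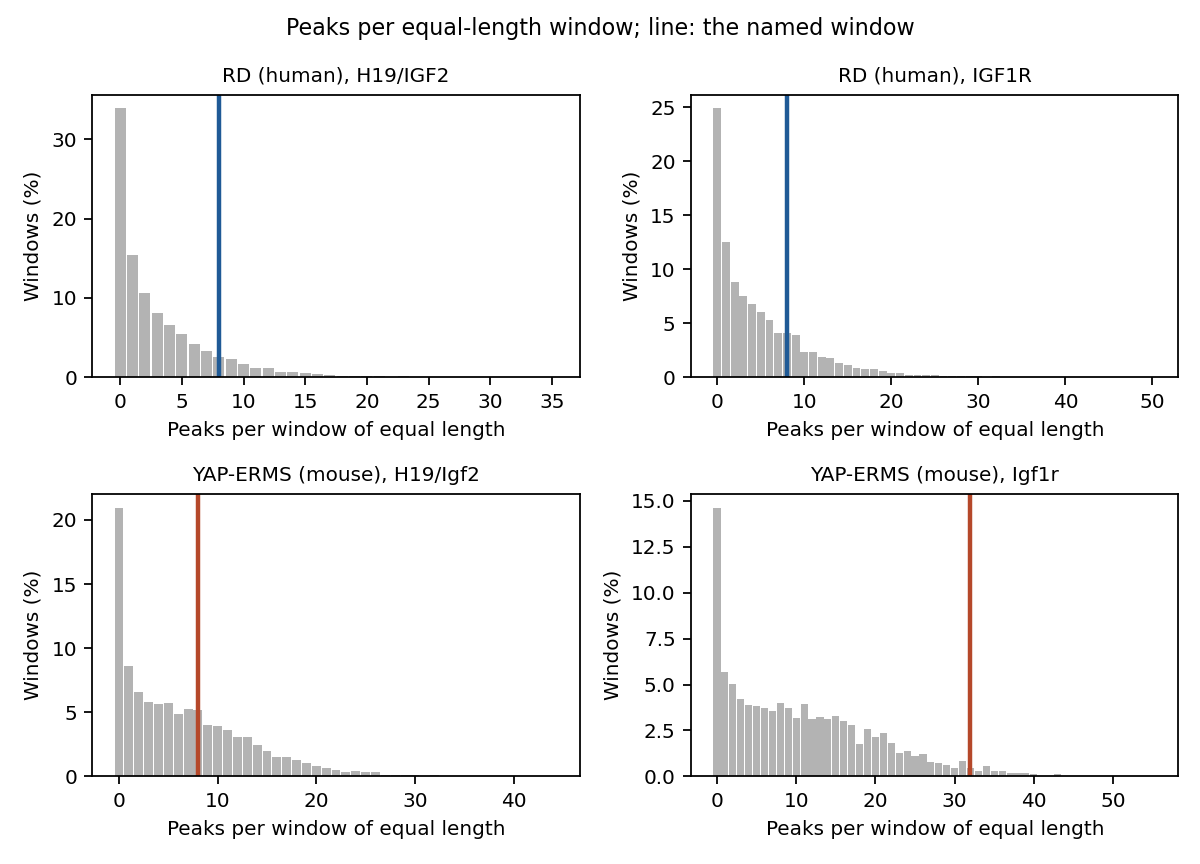
Share of equal-length windows, in percent, by the number of peaks they hold, for the length of each named window; the coloured line marks the named window. It stands at 8 peaks in 3 panels, well within the grey distribution, and at 32 peaks for the mouse Igf1r window, which 2.97% of windows reached or exceeded.

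The intervals of the relative densities overlapped between the species, at 0.72 to 3.29 for human and 2.06 to 4.25 for mouse IGF1R. They also overlapped for H19/IGF2, at 1.12 to 5.11 and 0.54 to 2.46. The lists differ in species, control and possibly depth, so these ratios measure no difference in TEAD binding. Peaks covered 0.760% of the RD H19/IGF2 window and 0.454% of the RD IGF1R window, against 0.292% over the RD list. In YAP-ERMS they covered 3.54% of the H19/Igf2 and 7.10% of the Igf1r window, against 2.20% over the list.

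The height of the single highest peak set the windows apart in another order. In RD, 5.52% of equal-length windows had a highest score of 1496 or more, as at H19/IGF2, and 30.42% had 675 or more, as at IGF1R. In YAP-ERMS, 10.32% of windows reached the 1803 of H19/Igf2 and 7.35% the 2386 of Igf1r. The RD IGF1R window was thus the least marked of the 4 by this measure, and the mouse H19/Igf2 window by the number of peaks.

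Scores of the members ranged widely. The upper quartile of the list, which 25% of all its peaks exceed, was 376 in RD and 420 in YAP-ERMS. It was exceeded by 2 of 8 RD peaks at H19/IGF2 and 3 of 8 at IGF1R, and by 4 of 8 mouse peaks at H19/Igf2 and 12 of 32 at Igf1r. A score above 1000 was reached by 1 of 8 RD peaks at H19/IGF2 and 0 of 8 at IGF1R, against 5.47% of the RD list. In YAP-ERMS it was reached by 1 of 8 at H19/Igf2 and 4 of 32 at Igf1r, against 7.38% of the list. The Wilson 95% interval of the share for 4 of 32 ran from 4.97% to 28.1% and included the list's share. The median member's score was at or above that of 54.4% of the list for RD H19/IGF2 and 63.9% for RD IGF1R. These shares were 62.5% for mouse H19/Igf2 and 59.9% for mouse Igf1r. In the windows of 8 peaks the order-statistic interval of the median is the range from the lowest to the highest member. It is too wide there to tell the median from 50%. At mouse Igf1r the 95% interval ran from 49.1% to 81.2%, with grouped peaks counted as independent.

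Width was compared at matched score, since higher scoring peaks are wider. Peaks wider than the median of their score made up 3 of 8 members at RD H19/IGF2 and 2 of 8 at RD IGF1R, against 49.6% of the list. They were 6 of 8 at mouse H19/Igf2 and 15 of 32 at mouse Igf1r, against 49.9%. The median width at matched score was -0.07, -0.22, 0.19 and -0.06 log2 units in that order, and all 4 intervals included 0. The 3051 bp peak at chr7:149654703-149657753 was 2.38 times as wide as mouse peaks of its score. At Igf1r the peaks at chr7:75055064-75057316 and chr7:75407260-75409612 were 1.74 and 1.66 times as wide, and the narrowest for its score, at chr7:75325823-75326657, was 0.664 times as wide.

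**Figure D4:**
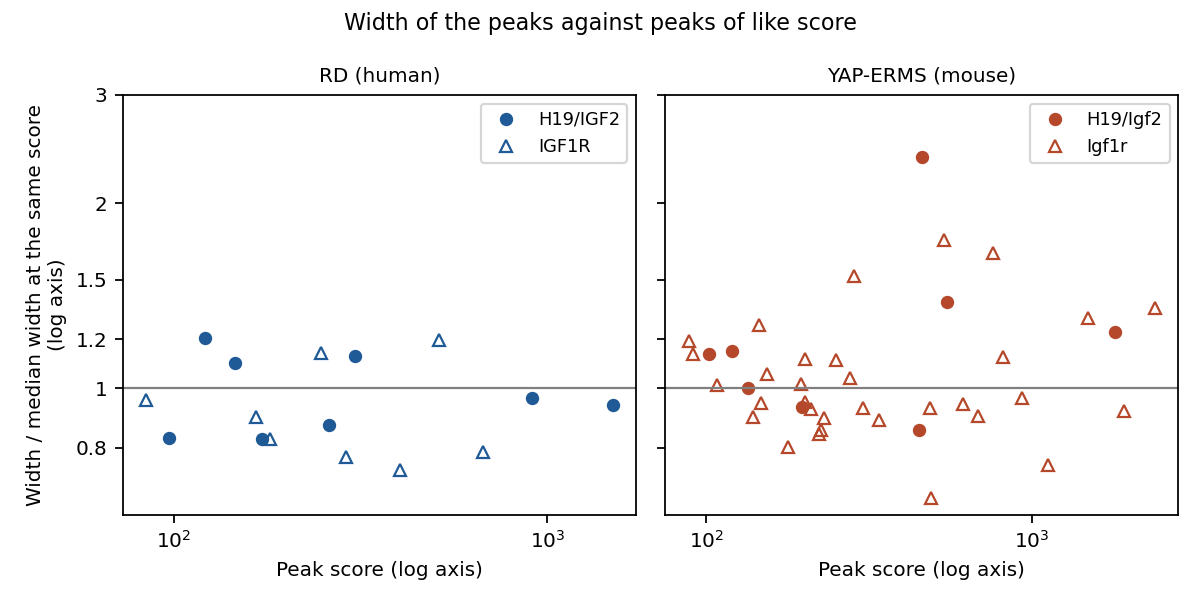
Width of each member divided by the median width of peaks of like score in its list (log axis) against its score (log axis), for RD (left) and YAP-ERMS (right); filled circles are H19/IGF2 and open triangles IGF1R. Members lie on both sides of 1, and the circle at 2.38 is the widest for its score.

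The windows' edges left some peaks just outside. In RD these were chr11:1898181-1898587 with a score of 334, whose midpoint was 1.62 kb below the H19/IGF2 window, and chr15:99663907-99664492 with a score of 315, 4.20 kb above the IGF1R window. In YAP-ERMS they were chr7:149647842-149649233 with a score of 338, 1.46 kb below the H19/Igf2 window, and chr7:74947920-74949054 with a score of 147, 1.51 kb below the Igf1r window. The nearest members inside had scores of 172, 181, 461 and 536 in that order.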

How the data were processed

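TEAD binding was measured by ChIP-seq in RD and YAP-ERMS cells. Per the labels' protocols, cells were fixed in 1% formaldehyde for 10 minutes and chromatin was sheared to 200 to 500 bases on average. Bowtie2, hg19 and mm9 are named in the submitters' processing notes as aligner and builds. The authors deposited 1 list per cell line with positions and a score for each peak; their peak names are those MACS writes, and the list names give IgG or input as background. Caller version and read filters were not given in the sources used here. A score of 80, the lowest deposited, equals a p-value of 1e-08 on the scale of 10 times its negative log10.

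Python 3.11.15, numpy 2.4.6, pandas 2.3.3, scipy 1.17.1 and matplotlib 3.10.9 were used, and the measures were tested on simulated data. Positions are 1-based. Width at matched score used 50 score bins; a percentile counts peaks scoring no higher. Every peak was named in windows of 15 or fewer peaks, otherwise the 10 highest. The members, windows and lists were chosen with earlier results of these data known. Distances to gene starts, other genes of the IGF pathway and motifs in peaks need hg19 and mm9 and were not analysed here.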

Additional observations from a re-analysis of the deposited data

How the results depend on the processing

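Of 64 alternative values, 43 stayed within 1.5 times the count or within the interval of the value reported, and 21 did not. At scores of 160 or more the H19/IGF2 windows held 5 peaks in RD and 5 in YAP-ERMS. Above the list's median they held 4 and 4, and the IGF1R windows 5 and 21, as a stricter limit requires. The share of equal-length windows with as many peaks or more, for RD H19/IGF2, RD IGF1R, mouse H19/Igf2 and mouse Igf1r in that order, was 11.7%, 18.9%, 30.05% and 1.56% on the same chromosome, and 13.8%, 21.3%, 39.7% and 4.29% with peaks within 1 kb joined. Over windows with at least 1 peak it was 18.9%, 32.0%, 46.3% and 3.48% in the same order. At scores of 160 or more it was 12.45% for RD IGF1R, 35.2% for mouse H19/Igf2 and 1.32% for mouse Igf1r. The share for RD IGF1R thus depends on the score limit. With gaps of at most 5 kb RD IGF1R had 1 cluster in place of 2. The cause was not tested. No paired analysis was possible because each group was 1 library. Depth is unknown, so a stretch without a listed peak shows only that none passed the authors' limit.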

Other observations

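The 100 kb on either side of each window were counted after the members had been seen. Below the mouse H19/Igf2 window lay 7 peaks, against 1.83 per 100 kb over the mouse list, and above it 0. How many 100 kb stretches of the list hold 7 or more was not counted, so the 7 cannot be called unusual. The highest of the 7, at chr7:149615634-149617219, was 1586 bp wide with a score of 1177, below the 1803 of the window's own highest peak. Below the RD H19/IGF2 window lay 2 peaks, with a highest score of 468 at chr11:1848462-1848867, against 0.772 per 100 kb over the RD list, and above it 0. The peaks beside these windows were thus on the side of lower coordinates in both lists, but RD had only 2. A side without peaks is ordinary, since 33.9% of RD and 21.0% of mouse windows of the H19/IGF2 length held 0 peaks. In the human GRCh38.p14 gene order the lower side is that of MRPL23, TNNT3, PRR33 and LSP1. The mouse gene order was not read, and no peak beside a window was placed in relation to a gene. Beside the Igf1r window the mouse list had 5 peaks below, with a highest score of 407, and 1 above, with a score of 121. Beside the RD IGF1R window there were 0 below and 2 above.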
